A study of Homo sapiens with 12 samples.

Results

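The natural cytotoxicity receptor genes NCR1, NCR2 and NCR3 were examined with FCER1G and TYROBP, which encode ITAM adaptors, and with NCAM1 and SIGLEC7, which encode further surface molecules of NK cells. These 7 genes were chosen by symbol. Of them, 5 have a row among the 17589 genes of the table, and no value is given here for NCR2 (chromosome 6, 41335608 to 41350889, plus strand of GRCh38) or SIGLEC7 (chromosome 19, 51142299 to 51153526, plus strand). RNA-seq covered YT cells, a human NK-like lymphoid cell line, transduced with lentivirus and not stimulated, with 3 libraries in each of 4 groups. CTRL cells expressed eGFP. The hnCD16 cells expressed the hnCD16 receptor, FR1 cells a fusion of it with 2B4, DAP10 and CD3ζ domains, and FR2 cells a fusion with DAP10 and CD3ζ domains alone. All 4 groups carried a vector and were sorted for eGFP, and the constitutive hEF1A promoter drove the receptors. The labels do not say whether the replicates came from separate cultures, so p-values measure the spread between these libraries, which may be technical.

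Natural cytotoxicity receptors are activating receptors of the immunoglobulin superfamily whose own tails carry no ITAM. They pair in the membrane with small adaptor chains that carry ITAMs, tyrosine motifs that Src family kinases phosphorylate and that then recruit SYK or ZAP70. NKp46 (NCR1) and NKp30 (NCR3) pair with CD3ζ (CD247) or the Fc receptor γ chain (FCER1G), and NKp44 (NCR2) pairs with DAP12 (TYROBP). CD16a, the Fc receptor of NK cells, uses the same CD3ζ and FCER1G chains, and DAP10 (HCST) signals through a YxxM motif in place of an ITAM.

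The libraries held 17714550 to 18729013 counts each, so depth was similar across groups. Precision was not, since every pair of replicates within CTRL or hnCD16 disagreed more per gene than any pair within FR1 or FR2. As a check of the constructs, FCGR3A, the gene of CD16a, had 0 counts in CTRL. In the hnCD16 group 453 to 480 counts were found, and the FR1 and FR2 groups held 559 to 567 and 1012 to 1132, although its near-identical copy FCGR3B makes these values uncertain. FCGR3A sets CTRL apart from the other groups but does not check FR1 against FR2. CD244, the gene of 2B4, which only the FR1 construct carries, had 2199 to 2310 counts in FR1, 1948 to 2133 in FR2 and 115 to 185 elsewhere. The FR1 range lay just above the FR2 range. FR2 was itself far above the groups without a fusion receptor, so CD244 is a weak check of FR1 against FR2. The cell type was checked against markers, and the CTRL and hnCD16 libraries stood apart from FR1 and FR2. The 20 NK cell markers, 3 of which are NCR1, NCR3 and NCAM1, summed to 132 to 171 CPM (counts scaled to a common library size after TMM normalization) in CTRL and hnCD16 and to 4748 to 5059 CPM in FR1 and FR2. Without those 3 genes the sums were 126 to 165 CPM and 4716 to 5029 CPM. The NK cell list was mixed, since 11 of its 17 tested markers were higher and 4 lower in FR1 than in hnCD16. That is 88.2% called where 38.3% of all genes were. CD2 of this list had 0 counts in the FR1 and FR2 libraries. GZMB, which encodes granzyme B, had 10 to 17 counts in the libraries of CTRL and hnCD16 and 44542 to 49153 in FR1 and FR2, while KLRF1 had at most 2 counts in every library. The 12 T cell markers summed to 751 to 911 CPM in CTRL and hnCD16 and to 133 to 173 CPM in FR1 and FR2, and CD3D had 7757 to 9903 counts in the former and at most 3 in the latter. The 8 immature thymocyte markers with a row summed to 137 to 158 CPM and 1.79 to 3.03 CPM in the same order. Across the table, 271 genes had at least 1 CPM in all 6 FR1 and FR2 libraries and at most 3 counts in each of the 6 CTRL and hnCD16 libraries, and 459 genes showed the opposite pattern. Of B cell and ILC3 markers 7 and 8 have a row, and they summed to 11.95 to 17.1 and 21.8 to 25.4 CPM in CTRL and hnCD16 and to 38.3 to 47.4 and 128 to 141 CPM in FR1 and FR2. Of the 4 tested B cell markers PAX5 was higher in FR1 than in hnCD16, at 0 to 5 counts in CTRL and hnCD16 and 656 to 828 in FR1 and FR2, while the other 3 were lower. In that comparison 1 of 12 tested T cell markers was higher and 10 were lower, and of 6 ILC3 markers 3 were higher and 2 lower. These shares of 91.7% and 83.3% called stand beside 38.3% of all genes. The part of these marker differences in the results below was not tested, and they cannot be told apart from the construct wherever FR1 or FR2 is compared with CTRL or hnCD16.

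NCR1, encoding NKp46, was nearly absent from the CTRL and hnCD16 libraries and present in every FR1 and FR2 library. The gene lies on chromosome 19 from 54906148 to 54916140 on the plus strand of GRCh38 (GENCODE v44), and its NCBI Gene number is 9437. The CTRL libraries held 0, 5 and 2 counts of NCR1 and the hnCD16 libraries held 1, 1 and 0. The FR1 libraries held 462, 436 and 460 counts and the FR2 libraries 535, 506 and 462. The lowest FR library was therefore far above the highest library of the other groups, and the FR1 and FR2 ranges touched at 462 counts. Scaled levels of NCR1 were 0.117 ± 0.126 CPM in CTRL, 0.0361 ± 0.0313 CPM in hnCD16, 26.1 ± 0.783 CPM in FR1 and 28.3 ± 1.77 CPM in FR2 (SD, n = 3 libraries). In bulk RNA, fewer cells that express a gene and less of its RNA per cell cannot be told apart.

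Its differences were large in all 4 comparisons of an FR group with a group without fusion receptor. NCR1 was higher in FR1 than in hnCD16 by a log2 fold change of 9.25 ± 0.26 (SE, edgeR, adjusted p = 8.4e-16) and in FR2 than in hnCD16 by 9.37 ± 0.26 (edgeR, adjusted p = 5.16e-16). Because hnCD16 held 2 counts of NCR1 in all, the ratio of summed counts has a wide 95% counting interval, from 201 to 6003 around 726 for FR1 and from 218 to 6526 around 790 for FR2. The SE was derived from the edgeR F statistic and does not show that width. Against CTRL the log2 fold changes of NCR1 were 7.71 ± 0.22 for FR1 (edgeR, adjusted p = 8.09e-16) and 7.83 ± 0.21 for FR2 (edgeR, adjusted p = 4.99e-16). Without CTRL replicate 2, which held 5 of the 7 CTRL counts, they were 8.81 and 8.96. Without CTRL replicate 1 they were 7.17 and 7.29. On log2(TPM + 1) the 4 differences were smaller, at 5.33 to 5.69. FR1 and FR2 did not differ past the threshold, at a log2 fold change of -0.12 ± 0.09 (edgeR, adjusted p = 0.335), with a ratio of summed counts of 0.920 (95% counting interval 0.854 to 0.991). Between hnCD16 and CTRL the log2 fold change was -1.54 ± 0.97 (edgeR, adjusted p = 0.224), on 2 and 7 counts in all, and the counting interval of the ratio of summed counts ran from 0.0310 to 1.61.

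NCR3, encoding NKp30, showed the opposite order, with its highest levels in CTRL and hnCD16 and its lowest in FR2. It lies on chromosome 6 from 31588895 to 31593006 on the minus strand (NCBI Gene 259197). The CTRL libraries held 109, 108 and 105 counts of NCR3 and the hnCD16 libraries 105, 105 and 101. The FR1 libraries held 14, 12 and 17 counts and the FR2 libraries 5, 0 and 2. The FR1 range lay apart from the CTRL and hnCD16 ranges and from FR2 on the other side, so that FR1 was intermediate. Levels of NCR3 were 5.40 ± 0.172 CPM in CTRL, 5.58 ± 0.189 CPM in hnCD16, 0.825 ± 0.139 CPM in FR1 and 0.131 ± 0.141 CPM in FR2 (SD, n = 3 libraries).

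NCR3 fell in both FR groups and was the only gene of the set called between FR1 and FR2. FR1 cells differed from hnCD16 cells by -2.75 ± 0.22 on the log2 scale and FR2 cells by -5.33 ± 0.31 (edgeR, adjusted p = 1.92e-09 and 2.59e-11). From CTRL the differences on that scale were -2.70 ± 0.22 and -5.28 ± 0.31 (edgeR, adjusted p = 2.42e-09 and 3.11e-11). The FR2 values rest on 7 counts, and without FR2 replicate 1 they were -6.42 against hnCD16 and -6.40 against CTRL. Without FR2 replicate 2 they were -4.77 and -4.72 in the same order. NCR3 was higher in FR1 than in FR2 by a log2 fold change of 2.58 ± 0.48 (edgeR, adjusted p = 0.000452), and the ratio of 43 to 7 summed counts was 6.25 with a 95% counting interval from 2.79 to 16.48. With limma on log2(TPM + 1) that difference was 0.92, below the fold threshold of 1. The edgeR value was 3.69 without FR2 replicate 1 and 2.02 without FR2 replicate 2. CTRL and hnCD16 differed by a log2 fold change of 0.05 ± 0.15 (edgeR, adjusted p = 0.838), with a counting interval of the ratio from 0.882 to 1.21.

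The 3′ end of NCR3 overlaps by 15 bases with LST1, a gene of the opposite strand that runs from 31586124 to 31588909. LST1 had 188 to 229 counts in the libraries of CTRL and hnCD16 and 0 to 4 in FR1 and FR2, and whether counting used strand is not stated, so reads in the shared bases could belong to either gene. LST1 moved with NCR3, and its part in the NCR3 result was not tested.

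NCAM1, encoding the adhesion molecule CD56 by which human NK cells are recognised, was detected at a low level in FR1 and FR2 and hardly at all elsewhere. It spans chromosome 11 from 112961275 to 113278436 on the plus strand (NCBI Gene 4684). The CTRL libraries held 2, 0 and 4 counts of NCAM1 and the hnCD16 libraries 1, 0 and 2. The FR1 libraries held 29, 42 and 38 counts and the FR2 libraries 22, 21 and 27. Every FR library was above every library without a fusion receptor, and all 3 FR1 libraries were above all 3 FR2 libraries.

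The log2 fold changes of NCAM1 against hnCD16 were 5.11 ± 0.52 for FR1 (edgeR, adjusted p = 6.13e-08) and 4.45 ± 0.57 for FR2 (edgeR, adjusted p = 1.25e-06). The ratios of summed counts were 38.9 (95% counting interval 12.95 to 191) for FR1 and 24.5 (8.05 to 122) for FR2. Against CTRL the ratios were 20.8 (9.26 to 57.9) for FR1 and 13.1 (5.74 to 37.0) for FR2, and edgeR called both (adjusted p = 1.05e-07 and 2.81e-06). Without hnCD16 replicate 3 the log2 fold changes against hnCD16 were 5.95 and 5.29, and without hnCD16 replicate 2 they were 4.59 and 3.92. Those against CTRL were 4.29 and 3.63 with all libraries. Without CTRL replicate 3 they were 5.19 and 4.55, and without CTRL replicate 2 they were 3.71 and 3.08. FR1 and FR2 differed by a log2 fold change of 0.66 ± 0.28, which did not pass the threshold (edgeR, adjusted p = 0.0777). NCAM1 is a long gene, and its length-scaled level stayed under 1 TPM (transcript abundance scaled for length and depth) in every library, with 0.617 ± 0.114 TPM in FR1 and 0.393 ± 0.0586 TPM in FR2 (SD, n = 3 libraries). On the log2(TPM + 1) scale its 4 differences between an FR group and the others were therefore 0.42 to 0.67 and none reached the fold threshold.

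FCER1G, the Fc receptor γ chain that NKp46, NKp30 and CD16a can all use, was low in all 4 groups. It lies on chromosome 1 from 161215234 to 161220699 on the plus strand (NCBI Gene 2207). The libraries held 5, 9 and 13 counts of FCER1G in CTRL, 21, 15 and 13 in hnCD16, 10, 12 and 10 in FR1 and 5, 4 and 13 in FR2. The level was highest in hnCD16 at 0.881 ± 0.234 CPM and lowest in FR2 at 0.417 ± 0.284 CPM, with CTRL at 0.451 ± 0.196 CPM and FR1 at 0.614 ± 0.0687 CPM (SD, n = 3 libraries). In CPM the CTRL range, up to 0.647, lay below the hnCD16 range, which began at 0.691, and the other pairs of groups overlapped. In counts the FR1 range of 10 to 12 lay below the hnCD16 range of 13 to 21. Neighbours in the order of means did not differ past the threshold.

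FCER1G was called only as lower in FR2 than in hnCD16, by a log2 fold change of -1.07 ± 0.41 (edgeR, adjusted p = 0.0253). That call rested on single libraries. Without hnCD16 replicate 1 the adjusted p was 0.111, without FR2 replicate 1 it was 0.119 and without FR2 replicate 2 it was 0.116, and DESeq2 gave an adjusted p of 0.0581. Over all settings tried, its adjusted p ran from 0.00227 to 0.119. FCER1G was higher in hnCD16 than in CTRL by 0.95 ± 0.40 on the log2 scale (edgeR, adjusted p = 0.0632), and without CTRL replicate 3 the difference was 1.28 and passed (edgeR, adjusted p = 0.0355). FR1 differed from hnCD16 by -0.51 ± 0.38 and from CTRL by 0.44 ± 0.43 on the log2 scale, and neither passed the threshold (edgeR, adjusted p = 0.229 and 0.365).

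TYROBP, encoding DAP12, which serves NKp44, activating KIRs and NKG2C, had few counts in CTRL and hnCD16 and none in FR1 or FR2. It lies on chromosome 19 from 35904401 to 35908295 on the minus strand (NCBI Gene 7305). The CTRL libraries held 5, 6 and 4 counts of TYROBP, the hnCD16 libraries 4, 2 and 5, and all 6 FR libraries 0. The FR groups did not overlap with the others, but TYROBP did not pass the filter on low counts and was left out of the main test. Against a floor of 3 counts over the 3 libraries of a group, TYROBP was at least 3.43-fold lower in FR1 and at least 3.49-fold lower in FR2 than in hnCD16, and at least 4.37-fold and 4.44-fold lower than in CTRL. In the edgeR fit without the filter it was called in these 4 comparisons, with adjusted p-values of 0.00364, 0.00339, 0.00138 and 0.00129. CTRL and hnCD16 did not differ detectably at this depth, with 15 and 11 counts in all.

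TYROBP and HCST are neighbours that converge on chromosome 19, with 23 bases between the 3′ end of one and that of the other. HCST had 285 to 335 counts in the FR libraries, in which TYROBP had 0, and 177 to 203 in the libraries of CTRL and hnCD16. FCER1G and TYROBP are also genes of myeloid cells and FCER1G of mast cells. The 14 myeloid markers summed to 5.56 to 7.46 CPM in CTRL and hnCD16 and to 37.4 to 64.7 CPM in FR1 and FR2. In these pairs of groups 2 and 5 of them were at 1 CPM or more in every library of a group. The list was mixed, as CD14 had at most 2 counts and S100A8 at most 1. Of its 5 tested markers, 3 were higher and 0 lower in FR1 than in hnCD16, and 4 were higher and 0 lower in FR2. These shares of 60.0% and 80.0% called stand beside 38.3% and 39.5% of all genes. The 8 mast cell and basophil markers summed to 4.83 to 5.51 CPM in CTRL and hnCD16 and to 10.1 to 15.3 CPM in FR1 and FR2. FCER1A had at most 2 counts in every library. Of 3 tested markers of that list, 1 was higher and 1 lower in FR1 than in hnCD16, or 66.7% called.

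**Figure D1:**
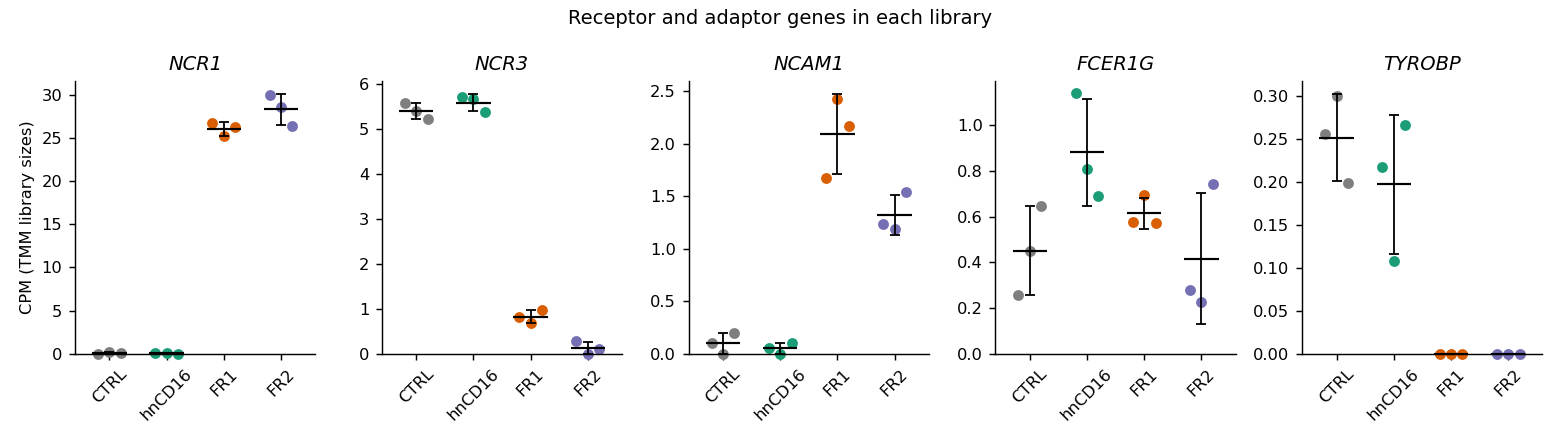
CPM of NCR1, NCR3, NCAM1, FCER1G and TYROBP in each of the 12 libraries, each panel with its own linear axis from 0. Points are libraries, bars the mean and whiskers the SD of 3 libraries. NCR1 and NCAM1 were higher in FR1 and FR2 than in the other groups, NCAM1 at a low level, and NCR3 was higher in CTRL and hnCD16. TYROBP was at 0 in FR1 and FR2, and FCER1G was low throughout, with its highest mean in hnCD16.

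Read against the whole table, these calls were made where calls were common. Between FR1 and hnCD16, 3 of the 4 tested genes of the set were called as DEGs, against 38.3% of the 13657 genes tested. Between FR2 and hnCD16 all 4 were called, against 39.5%. Against CTRL 3 of 4 were called in FR1 and 3 of 4 in FR2, where 38.0% and 38.2% of all genes were called. Between hnCD16 and CTRL edgeR called none of the 4, against 0.527% of all genes, although FCER1G had an unadjusted p of 0.0286. NCR1 and NCAM1 had at most 5 and 4 counts in a library of these groups. They passed the filter through the FR libraries, so a call could hardly be made for them here. With only these 2 groups fitted, 2 genes of the set were tested and 0 called. Between FR1 and FR2 NCR3 alone was called, against 1.93% of all genes. The 4 comparisons of FR groups share their control libraries in pairs and are not independent of each other.

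**Figure D2:**
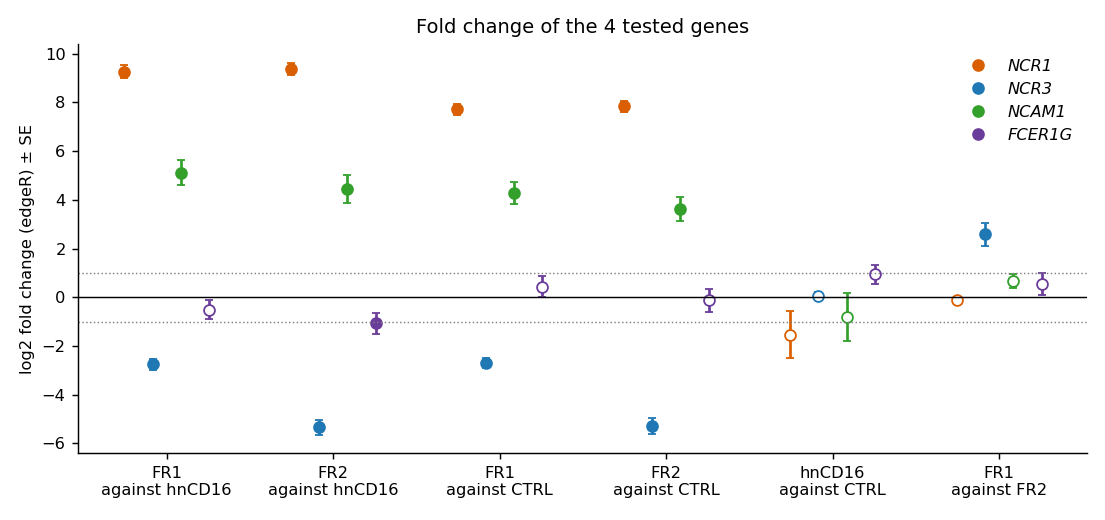
Log2 fold change (edgeR) with an SE derived from the F statistic of the test for NCR1, NCR3, NCAM1 and FCER1G in 6 comparisons. Filled points were called as DEGs, open points were not, and dotted lines mark log2 fold changes of -1 and 1. NCR1 and NCAM1 lie above 1 and NCR3 below -1 wherever an FR group was compared with hnCD16 or CTRL.

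The promoters of NCR1 and TYROBP are shown because these genes moved in opposite directions between the groups, the former from near 0 and the latter to 0. Each sequence is the 250 bases before the RefSeq gene start on GRCh38.p14, written 5′ to 3′ in the direction of the gene. NCR1 is at chr19:54905898-54906147 on the plus strand and TYROBP at chr19:35908296-35908545 on the minus strand. Capitals mark the RUNX core ACCACA, the ETS core CTTCCT and the T-box core GGTGTG, each searched on both strands.
NCR1: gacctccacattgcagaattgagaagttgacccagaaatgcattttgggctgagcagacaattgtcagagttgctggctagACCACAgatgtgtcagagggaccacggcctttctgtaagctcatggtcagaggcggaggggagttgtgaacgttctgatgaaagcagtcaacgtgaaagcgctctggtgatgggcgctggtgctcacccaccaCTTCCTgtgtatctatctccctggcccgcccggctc
TYROBP: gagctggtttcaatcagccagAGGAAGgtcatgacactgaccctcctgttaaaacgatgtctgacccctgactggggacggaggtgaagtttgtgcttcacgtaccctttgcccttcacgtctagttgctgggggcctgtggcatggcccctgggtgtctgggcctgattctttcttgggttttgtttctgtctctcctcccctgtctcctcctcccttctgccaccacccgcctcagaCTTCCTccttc

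The NCR1 window holds 1 RUNX core, which begins 169 bases before the start, and 1 ETS core, which begins 36 bases before it. The TYROBP window holds an ETS core 11 bases before the start and another on the opposite strand 229 bases before it, and no RUNX core. Neither window holds the T-box core. Of 35116 promoter windows of the same length, 10.98% hold the RUNX core, 28.7% the ETS core and 14.2% the T-box core, so a match is common. RefSeq entries were also found for NCR2, FCER1G and SIGLEC7, and none was used for NCR3 or NCAM1.

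The transcript table was used to see which transcripts carried the counts. FCER1G has 1 transcript, NM_004106, which took all of its counts. NCAM1 counts in FR1 and FR2 fell mainly on NM_001386292, with 96.1% in FR1 and 95.4% in FR2, and this transcript was called between FR1 and hnCD16 (edgeR, log2 fold change 5.56 ± 1.68, adjusted p = 0.0422). Between FR2 and hnCD16 it was not called, at 4.92 ± 1.63 (edgeR, adjusted p = 0.0609), and against CTRL the adjusted p of edgeR was 0.0409 for FR1 and 0.0601 for FR2. NM_000615 took 3.92% and 4.61% of the NCAM1 counts in those groups. The few TYROBP counts were assigned to NM_001173514 and NM_001173515 in CTRL and to NM_198125 in hnCD16, with at most 6 counts in a library.

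NCR1 and NCR3 are listed in 78 and 25 rows, because 70 and 20 of these are copies of transcripts on alternate scaffolds. RSEM divides reads between such copies, so their rows were added up per transcript. In FR1 the NCR1 counts were spread over NM_001145457 with 25.7%, NM_001242356 with 21.5%, NM_004829 with 20.02%, XM_011527528 with 15.0%, NM_001145458 with 11.1% and others. In FR2 the same transcripts took 32.0%, 20.6%, 14.3%, 13.6% and 13.4%, and no NCR1 transcript differed past the threshold between FR1 and FR2. The estimates varied between libraries, from 19.4% to 30.8% for NM_001145457 in FR1.

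NCR3 transcripts differ in the end of the coding sequence, which sets the cytoplasmic tail of NKp30. NM_001145466 took 72.0% of the NCR3 counts in CTRL, 43.4% in hnCD16 and 81.0% in FR1, and 0% in FR2, where the 7 counts were assigned to NM_001145467 (71.5%) and XM_011514459 (28.5%). NM_147130 took 9.21% in CTRL and 26.5% in hnCD16, and 0% in both FR groups. These shares rest on 7 to 322 counts in a group. With copies added up, NM_001145466 was higher in FR1 than in FR2 by a log2 fold change of 6.63 ± 0.75 (edgeR, adjusted p = 0.00601), a value that depends on the prior count since FR2 was at 0. The call stands against 0.264% of the 54621 transcripts tested that way. Adding up copies was not planned. Without it, neither tested copy of NM_001145466 was called between FR1 and FR2 (edgeR, adjusted p = 0.783 and 0.752). On the table as deposited, 6 of the 16 tested rows of the set were called between FR1 and hnCD16, against 14.8% of the 56640 transcripts tested. With copies added up, 7 transcripts were called, against 14.8%. Both ways, all called rows except NM_001386292 of NCAM1 belong to NCR1, which was near 0 in hnCD16, and none to NCR3 or FCER1G. Rows of the same gene are not independent, so these counts mainly repeat the NCR1 difference.

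Among adaptor chains, CD3ζ was far more abundant than the Fc receptor γ chain or DAP12 in every library. CD247, which encodes CD3ζ, had a length-scaled level of 98.8 ± 3.62 TPM in CTRL, 92.9 ± 1.47 TPM in hnCD16, 112 ± 0.851 TPM in FR1 and 131 ± 3.07 TPM in FR2 (SD, n = 3 libraries). FCER1G was at 1.65 ± 0.780, 2.85 ± 0.654, 1.91 ± 0.208 and 1.31 ± 0.891 TPM in the same groups, and TYROBP at 1.0 ± 0.187 TPM in CTRL, 0.667 ± 0.287 TPM in hnCD16 and 0 in FR1 and FR2. CD247 thus made up 95.6% to 99.5% of the summed TPM of these 3 ITAM chains in each library. HCST was at 39.0 ± 2.04, 38.1 ± 2.44, 53.2 ± 1.13 and 59.1 ± 2.70 TPM. CD247 overlaps by 2319 bases with POU2F1, a gene of the opposite strand. POU2F1 had 1145 to 1715 counts in the libraries of CTRL and hnCD16 and 575 to 629 in the FR libraries. Whether counting used strand is not stated, so reads in the shared bases could belong to either gene, and the part of POU2F1 in the CD247 level was not tested. The fusion constructs carry CD247 and HCST sequence, so reads of the transgene can be counted on these genes, and their log2 differences against hnCD16 and CTRL, 0.34 to 0.61 for CD247 and 0.72 to 0.94 for HCST, stayed below the fold threshold.

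In the FR1 libraries the length-scaled order was CD247 at 112 TPM, HCST at 53.2, NCR1 at 48.3, FCER1G at 1.91, NCR3 at 1.36, NCAM1 at 0.617 and TYROBP at 0. In CTRL it was CD247 at 98.8 TPM, HCST at 39.0, NCR3 at 10.3, FCER1G at 1.65, TYROBP at 1.0, NCR1 at 0.247 and NCAM1 at 0.0400. NCR1 and NCR3 thus exchanged places between these groups, while FCER1G stayed between 0.70 and 3.59 TPM in all 12 libraries.

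**Figure D3:**
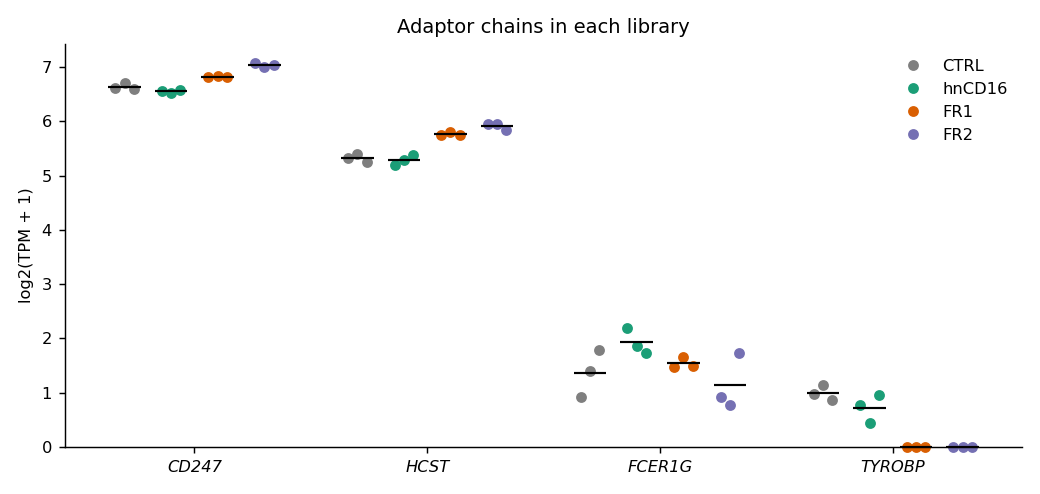
Length-scaled level, log2(TPM + 1), of CD247, HCST, FCER1G and TYROBP in each of the 12 libraries, with the mean of each group as a bar. CD247 and HCST lie far above FCER1G and TYROBP in every library, and TYROBP is at 0 in all FR1 and FR2 libraries.

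All 8 other ITAM or YxxM chains were tested, CD247 and HCST among them, and 1 was higher and 5 were lower in each of the 4 comparisons of an FR group with hnCD16 or CTRL, or 75.0% called where 38.0% to 39.5% of all genes were. Their median log2 fold change between FR1 and hnCD16 was -3.06, beside -0.01 over all genes tested. CD3D and CD3G, chains of the T cell receptor complex, had 7757 to 9903 and 2094 to 2607 counts in the libraries of CTRL and hnCD16 and at most 3 and 45 in the FR libraries. CD3E, of the same complex, fell by 1.57 on the log2 scale in FR1 against hnCD16 (edgeR, adjusted p = 4.92e-14) and kept 595 to 717 counts in the FR libraries. CD79A and CD79B, chains of the B cell receptor, had 98 to 175 and 72 to 105 counts in the libraries of CTRL and hnCD16 and at most 7 and 2 in the FR libraries. FCRL1, an Fc receptor-like protein of B cells with ITAM-like motifs, was the chain that rose, with 5 to 11 counts in CTRL and hnCD16 and 52 to 91 in FR1 and FR2.

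Of 29 receptors with a row that pair with FCER1G or TYROBP, 16 were tested. Between FR1 and hnCD16, 4 were higher, 2 lower and 10 not called, with a median log2 fold change of 0.16. The 6 calls make up 37.5% of the list, close to the 38.3% of all genes tested. KIR2DL4, which pairs with FCER1G, had 0 to 2 counts in the libraries of CTRL and hnCD16 and 1432 to 1741 in FR1 and FR2. KLRC2 (NKG2C), which signals through DAP12, had 0 to 1 and 84 to 137 counts in the same libraries, which puts FR1 at least 117-fold higher than hnCD16. KIR and NKG2 genes have near-identical copies, so both values are uncertain. TYROBP was thus at 0 counts in the libraries with 84 or more counts of KLRC2.

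TREM1, another DAP12 partner, rose by 1.14 ± 0.38 on the log2 scale in FR1 against hnCD16 (edgeR, adjusted p = 0.0105). CLEC4E (Mincle), an FCER1G partner, fell by 3.14 ± 0.26 on that scale (edgeR, adjusted p = 4.03e-09), and it was higher in hnCD16 than in CTRL by 1.004 ± 0.19 (edgeR, adjusted p = 0.000511). CD300C and CLEC5A were the other receptors called between FR1 and hnCD16 and are named after their values were seen. CD300C had at most 1 count in the libraries of CTRL and hnCD16 and 11 to 41 in the FR libraries, and CLEC5A, a DAP12 partner, had 10 to 12 and 0.

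Among kinases and proximal signalling genes downstream of ITAMs, 31 of 36 with a row were tested, and 9 were higher, 8 lower and 14 not called between FR1 and hnCD16 (median log2 fold change 0.20), or 54.8% called against 38.3% of all genes. LCK, the Src family kinase of T cells, had 1234 to 1770 counts in the libraries of CTRL and hnCD16 and at most 2 in the FR libraries. GRAP2 (GADS), an adaptor, and VAV2, an exchange factor, went from 629 to 805 and from 78 to 148 counts to at most 1 and at most 2. FGR, a Src family kinase, had 2 to 6 counts without a fusion receptor, 433 to 479 with FR1 and 199 to 239 with FR2. It was the only tested gene of this list called between FR1 and FR2 (edgeR, log2 fold change 1.08 ± 0.09, adjusted p = 2.36e-07). PIK3CD, a catalytic subunit of PI3K, rose by 4.52 ± 0.06 on the log2 scale in FR1 against hnCD16 (edgeR, adjusted p = 8.8e-20).

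Ligands of the natural cytotoxicity receptors were also measured in these cells. Of 9 tested, 2 were higher, 2 lower and 5 not called in each of the 4 comparisons, or 44.4% called where 38.0% to 39.5% of all genes were. LGALS3 (galectin-3), a soluble ligand of NKp30, had 2 to 9 counts in the libraries of CTRL and hnCD16 and 2860 to 3172 in FR1 and FR2. NCR3LG1 (B7-H6), the membrane ligand of NKp30, fell by 3.49 ± 0.15 on the log2 scale in FR1 against hnCD16 (edgeR, adjusted p = 5.21e-13), from 270 to 437 counts in CTRL and hnCD16 to 14 to 31 in the FR libraries. CFP (properdin), a ligand of NKp46, fell by 2.50 ± 0.27 on that scale (edgeR, adjusted p = 1.47e-07). PDGFD, a ligand of NKp44 that is named after its values were seen, had 0 counts in all CTRL and hnCD16 libraries and 11 to 22 in FR1 and FR2.

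SIGLEC7 encodes an inhibitory receptor of NK cells and has no value here. Of 6 related Siglec genes tested, 1 was lower and 5 were not called between FR1 and hnCD16, with a median log2 fold change of -0.28, and 16.7% called stands beside 38.3% of all genes. SIGLEC12 had 236 to 353 counts in the libraries of CTRL and hnCD16 and 0 in all FR libraries, at least 266-fold lower in FR1 than in hnCD16. SIGLEC10, named after its values were seen, was also called in FR2 against hnCD16 at a log2 fold change of -1.25 ± 0.10 (edgeR, adjusted p = 1.9e-09), and at -0.95 ± 0.10 in FR1 it did not reach the fold threshold.

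Siglecs bind sialic acid, and of 21 tested genes for its synthesis, transfer and removal, 7 were higher, 2 lower and 12 not called between FR1 and hnCD16 (median log2 fold change 0.67). This share of 42.9% called is near the 38.3% of all genes. ST6GAL1 and ST3GAL1, sialyltransferases, rose by 3.96 ± 0.09 and 2.68 ± 0.06 on the log2 scale (edgeR, adjusted p = 3.56e-17 and 1.23e-17). ST3GAL4, another sialyltransferase, rose by 1.74 ± 0.07 and NEU1, a sialidase, by 1.79 ± 0.07 (edgeR, adjusted p = 1.78e-13 and 1.88e-13). ST8SIA4, which builds the polysialic acid that NCAM1 carries, fell by 2.37 ± 0.06 (edgeR, adjusted p = 2.26e-16), from 843 to 1021 counts in CTRL and hnCD16 to 168 to 252 in FR1 and FR2, while NCAM1 itself was higher there.

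Of 8 relatives and partners of NCAM1 tested, 1 was higher, 4 were lower and 3 not called between FR1 and hnCD16 (median log2 fold change -1.09), so that 5 of 8 were called against 38.3% of all genes tested. FGFR1, a receptor that NCAM1 binds, fell by 2.75 ± 0.06 on the log2 scale, ALCAM (CD166), an adhesion molecule, by 2.59 ± 0.11 and SPTBN1, a membrane skeleton protein, by 1.63 ± 0.05 (edgeR, adjusted p = 1.04e-17, 2.04e-13 and 6.5e-16). FYN, a kinase bound by both NCAM1 and ITAM receptors, was the gene that rose, by 2.46 ± 0.05 (edgeR, adjusted p = 2.66e-17). Among inhibitory phosphatases and ITIM signalling genes, 1 of 9 tested was higher and 3 were lower between FR1 and hnCD16, with a median log2 fold change of -0.71. At 44.4% the called share is near that of all genes, 38.3%. DOK2, UBASH3A and UBASH3B, which dampen ITAM signalling, had 105 to 175, 93 to 156 and 792 to 1278 counts in the libraries of CTRL and hnCD16 and at most 1, 1 and 2 in the FR libraries. PTPN22, a phosphatase that acts on Src family kinases, rose by 1.92 ± 0.08 on the log2 scale (edgeR, adjusted p = 2.74e-13).

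Among the 9 pathway lists, that named for transcription regulators of NK cells had the highest share of calls between FR1 and hnCD16, 90.9% against 38.3% of all genes, while the T cell markers had 91.7%. The list is broad and also holds BCL11B, TCF7, LEF1, SPI1, CEBPA, CEBPB and CEBPE, so its share is not that of NK cell regulators alone. Of 22 regulators tested, 12 were higher, 8 lower and 2 not called (median log2 fold change 1.04). ZEB2, PRDM1 (Blimp-1) and TBX21 (T-bet), regulators of NK cell maturation, had at most 1, 2 and 4 counts in the libraries of CTRL and hnCD16 and 1613 to 2040, 1152 to 1320 and 1224 to 1439 in FR1 and FR2. ID2, which innate lymphoid cells need to develop, had 11 to 34 and 4085 to 4704 counts in the same libraries. TCF7 (TCF-1), active in early lymphoid cells, fell by 7.01 ± 0.09 on the log2 scale (edgeR, adjusted p = 2.57e-20). How these lists relate to the cell type markers given above was not tested, nor was their part in the levels of NCR1, NCR3 and NCAM1.

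The genes with the pattern most like NCR1 over the 12 libraries were MAML2, TGFBR3 and SPHK1, with root mean square differences of 0.0896, 0.0983 and 0.0989 in centred log2(CPM + 1) among 12339 genes compared. Each was at most 0.300 CPM on average in CTRL and hnCD16 and between 24.6 and 33.3 CPM in FR1 and FR2. Among the genes near to NCR3 in pattern were TTC27 and SUPT20H, with differences of 0.180 and 0.189. Both kept a larger part of their level in FR1 and FR2 than NCR3 did, TTC27 having 103.5 CPM in hnCD16 against 28.7 CPM in FR1 and 17.03 CPM in FR2. FCER1G, TYROBP and NCAM1 had means under 1 CPM over the 12 libraries and were not matched.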

How the data were processed

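The authors trimmed reads with SOAPnuke, aligned them to GRCh38.p13 with HISAT2 2.1.0 and estimated expression with RSEM 1.3.1, and the submitters' processing notes also name Bowtie2 2.3.4.3 and DESeq2 1.4.5. The deposited expected counts are RSEM estimates per gene and per transcript without normalization, and the deposited TPM values were scaled by the authors for transcript length and depth. RSEM can divide a read between similar transcripts. Handling of strand is not given in the sources used here, and the labels name both ribosomal RNA depletion and oligo(dT) beads. The files' FPKM values, normalised counts and group averages were not used.

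Expected counts were rounded. Of 17589 genes, 17555 had a count and 13657 passed edgeR's filterByExpr. The quasi-likelihood test of edgeR 4.0.16 (R 4.3.3) with TMM normalization was fitted once to all 4 groups, with Benjamini-Hochberg adjustment over all genes tested for each of the 6 comparisons. A gene counted as a DEG where its adjusted p did not exceed 0.05 and its log2 fold change was 1 or more in size, as in the study. Of 90572 transcripts, 56640 were tested likewise. The SE printed with an edgeR log2 fold change is the size of that change divided by the square root of the F statistic of the test. It is not an output of edgeR and can be too small where a group holds few counts. Ratios of summed counts have exact (Clopper-Pearson) 95% intervals, and these, like the 3-count floor, cover only counting error. On simulated counts for FR1 against hnCD16, with a log2 change of 2 in 200 genes, the edgeR step called 200 of them and 2 unchanged genes of 13415 tested. Also run were RLE scaling, scaling by library size only, DESeq2 1.42.0, limma 3.58.1 (log2 of TPM with 1 or 0.1 added), other filters, fits of 2 groups, the replicate block, no fold threshold and leaving out each library.

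The genes of the set, the lists and the markers were chosen with earlier results of these data known. Named are all genes of the set, up to 5 genes of each of 9 pathway lists (largest change between FR1 and hnCD16 among genes of at least 1 CPM called in all 4 comparisons of an FR group with hnCD16 or CTRL), all other ITAM or YxxM chains, the 3 genes nearest in pattern to each gene of at least 1 CPM, and FCGR3A. A result that this rule would name is not reported here. Positions are from GENCODE v44. No pair of replicates agreed within sampling noise. Plots used matplotlib 3.10.9 (Python 3.11.15).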

Additional observations from a re-analysis of the deposited data

How the results depend on the processing

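Of 332 values of single genes under other settings, 314 kept their direction and their side of the threshold. With limma on log2(TPM + 1), 2 genes of the set were called between FR2 and hnCD16 and 0 between FR1 and FR2, since this scale shrinks low genes. Without CTRL replicate 3, 1 gene of the set (FCER1G) was called between hnCD16 and CTRL, where leaving out a library gave 0 to 1 calls. Reversed values were all of differences that were not called. For NCR3 between hnCD16 and CTRL these were -0.044 and -0.048 with limma on log2(TPM + 1) and log2(TPM + 0.1) and -0.065 with library size only, which moved all genes by -0.11 in that comparison, by -0.19 between FR1 and CTRL and by -0.13 between FR2 and CTRL. FCER1G between FR2 and CTRL turned to 0.25 without CTRL replicate 3, 0.10 without FR2 replicate 1 and 0.17 without FR2 replicate 2, within a leave-one-out range of -0.82 to 0.25. NCAM1 between hnCD16 and CTRL turned to 0.067 without CTRL replicate 3, within a leave-one-out range of -1.66 to 0.067. The cause was not tested for these leave-one-out values. TYROBP could be tested only without the filter.

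The labels of same-numbered replicates share only a number. The correlation of their deviations ran from -0.10 to 0.40, and no comparison had every pair over 0.1. Between hnCD16 and CTRL it was 0.34 for replicate 1, 0.02 for replicate 2 and 0.40 for replicate 3. Whether some replicates shared a batch was not tested. With the replicate number as a block, edgeR called 5247 genes between FR1 and hnCD16 in place of 5234, of which 5231 were shared, and 4 transcript rows of the set in place of 6. The block changed no call of the 4 tested genes.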
